A study of Mus musculus with 24 samples.

Results

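miR-10a and miR-10b are 2 closely related miRNAs whose genes lie inside Hox clusters, the HoxB cluster for miR-10a and the HoxD cluster for miR-10b. Their main mature products, mmu-miR-10a-5p and mmu-miR-10b-5p, are described here in extracellular vesicles (EVs) from mouse serum after bone surgery. These 2 rows were chosen by name from the 1966 mature miRNAs of the deposited count table, with their group levels already known, so the levels and fold changes of the pair are a description and carry no p value. The libraries came from 24 wild type C57BL/6 mice aged 14 to 16 weeks, which the study describes as male, with 1 library per mouse and 6 mice in each of the groups Control, S6h, S24h and S72h. The surgery was an open fracture of the tibia, fixed with a pin in the marrow canal under isoflurane and buprenorphine, and blood was taken 6, 24 or 72 h later. S24h and S72h mice also received analgesia every day, whereas Control mice were injected with saline. The Control mice belonged to the same batch of animals as S6h. S24h and S72h had control animals of their own (C24-72h), which were not analysed here, so in the comparisons of S24h or S72h with Control the time after surgery and the batch of animals cannot be told apart.

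A miRNA is cut as a short duplex from a hairpin, and 1 of the arms, named 5p or 3p after its side of the hairpin, usually accumulates and guides an Argonaute protein to messenger RNAs. The seed, bases 2 to 8 of the mature miRNA, is the stretch that pairs with target sites. The miR-10 genes are an old part of the Hox clusters and follow the Hox genes in their expression along the body axis, so that they are abundant in trunk and hind limb tissues. miR-10a is also known for its part in endothelial and haematopoietic cells, and miR-10b for its part in invasive tumour cells. Serum EVs are released by many tissues and blood cells, and the amount of a miRNA in them cannot be split into fewer vesicles from a source and fewer copies per vesicle.

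The mature sequences of both arms are shown because the pair differs by a single base in the counted 5p arm. The RefSeq sequences of the GRCm38.p6 assembly are written 5′ to 3′ with the seed in capitals.
mmu-miR-10a-5p: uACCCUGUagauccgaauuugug
mmu-miR-10b-5p: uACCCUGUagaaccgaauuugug
mmu-miR-10a-3p: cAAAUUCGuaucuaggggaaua
mmu-miR-10b-3p: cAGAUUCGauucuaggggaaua
Counted from the 5′ end of miR-10a-5p, the 5p arms differed by U12A and were identical at the other 22 of 23 positions, the seed included. The 3p arms differed at 3 of 22 positions, A3G, U9A and A10U, of which the first lies in the seed. Of the 1966 mature miRNAs in the table, 1675 were matched to a RefSeq sequence, and the seed ACCCUGU was found in these 2 members only. No other matched miRNA came within 2 substitutions of either 5p arm. A read whose base 12 was misread as that of the other member would match the other member, and how such reads were assigned is not given in the sources used here.

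miR-10a-5p lies at chr11:96317186-96317208 and miR-10b-5p at chr2:74726074-74726096, both on the plus strand of GRCm38. In the GENCODE annotation the hairpin gene Mir10a (chr11:96317165-96317274) was intergenic, 993 bp from Hoxb4 and 11044 bp from Hoxb5. Mir10b (chr2:74726070-74726137) lay within the spans of Hoxd3 and Hoxd4 and overlapped no exon of either gene, which makes it intronic. The hairpins are shown because both arms of each were counted, with the 5p and then the 3p arm in capitals.
Mir10a: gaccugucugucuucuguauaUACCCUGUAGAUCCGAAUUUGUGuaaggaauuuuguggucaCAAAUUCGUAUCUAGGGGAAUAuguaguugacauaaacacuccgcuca
Mir10b: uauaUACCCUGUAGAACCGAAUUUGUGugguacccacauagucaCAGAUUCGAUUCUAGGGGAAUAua
The loops between the arms differ, but reads of mature length do not hold them.

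Both members were abundant and had reads in all 24 libraries. Levels are CPM, counts scaled to the total of all miRNA counts in the library, which ranged from 63956 to 471801 counts, so that 1 count was worth between 2.12 and 15.6 CPM. By mean CPM, miR-10a-5p ranked 36th in Control and miR-10b-5p 39th, and at 72 h they ranked 48th and 60th. The pair together held a mean of 1.32% of all counts in Control, 1.42% in S6h, 1.22% in S24h and 0.686% in S72h.

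miR-10a-5p was at a similar level in Control, S6h and S24h and lower in S72h. In Control its CPM ranged from 4988 to 10326 with a median of 7197 (7335 ± 1943, mean ± SD, n = 6). In S6h it ranged from 3307 to 9595 with a median of 7181 (6929 ± 2037, n = 6). In S24h it ranged from 5716 to 10955 with a median of 6974 (7481 ± 1980, n = 6). The medians of these 3 groups lay much closer together than the mice within any one of them, and the S6h group held 1 low mouse, replicate 3, below all Control mice. In S72h the CPM of miR-10a-5p ranged from 2815 to 6091 with a median of 4359 (4354 ± 1215, n = 6). All 6 S72h mice were below the Control median and below the S24h median, 4 of 6 were below the lowest Control mouse and 5 of 6 below the lowest S24h mouse.

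miR-10b-5p differed more between groups, and their order was not the same. Its CPM in Control ranged from 3050 to 11949 with a median of 5149 (5859 ± 3233, n = 6). The highest value belonged to Control replicate 4 and stood well above the next Control mouse, at 6251. In S6h it ranged from 3375 to 9165 with a median of 7565 (7233 ± 2148, n = 6), and 5 of 6 mice were above the Control median. In S24h the CPM of miR-10b-5p ranged from 2834 to 6543 with a median of 4445 (4720 ± 1366, n = 6), and 4 of 6 mice were below the Control median. In S72h it ranged from 1335 to 4721 with a median of 2240 (2506 ± 1215, n = 6). All 6 S72h mice were below the Control median, 5 of 6 were below the lowest Control mouse, and 5 of 6 were below the lowest mouse of S24h and of S6h. The exception was S72h replicate 2, the highest of its group.

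**Figure D1:**
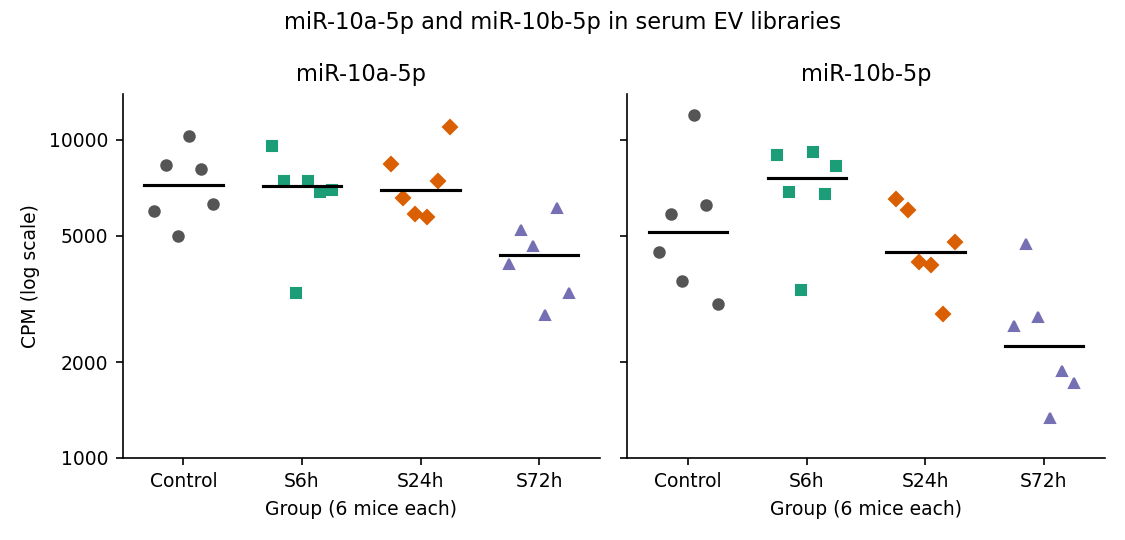
CPM of miR-10a-5p (left) and miR-10b-5p (right) on a log axis, with 1 point per mouse in the order of the replicate numbers and a line at the median of each group of 6. For miR-10b-5p, 5 of 6 S72h mice lie below all Control mice, and Control replicate 4 stands at 11949 CPM.

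From the highest to the lowest median, the order was Control, S6h, S24h and S72h for miR-10a-5p, and S6h, Control, S24h and S72h for miR-10b-5p. Neighbours in these orders overlapped in every case, most narrowly between S24h and S72h. The spread between mice was above the Poisson error of the read counts. The coefficient of variation of miR-10a-5p was between 26.5% and 29.4% in the 4 groups, where counting alone would give between 3.10% and 4.88%. That of miR-10b-5p was 29.7% in S6h and 28.9% in S24h, and it was 55.2% in Control and 48.5% in S72h, where counting alone would give 4.36% and 6.86%. Single mice set some of these values. Without Control replicate 4 the coefficient of variation of miR-10b-5p in Control was 29.97%, and without S72h replicate 2 it was 29.6% in S72h. Without S6h replicate 3, the lowest of its group for both members, it was 14.6% for miR-10a-5p and 14.3% for miR-10b-5p in S6h, and without S24h replicate 6 it was 16.7% for miR-10a-5p in S24h. The Poisson error treats reads as separate molecules, which reads amplified by PCR are not, so it is a lower limit.

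Fitted fold changes, from edgeR's quasi-likelihood model of all 4 groups with TMM-scaled libraries, gave the same picture. Against Control, the log2 fold change of the S6h group was -0.02 (SE 0.26) for miR-10a-5p and 0.36 (SE 0.33) for miR-10b-5p. At 24 h it was -0.15 (SE 0.26) for miR-10a-5p and -0.51 (SE 0.33) for miR-10b-5p. At 72 h it was -0.71 (SE 0.26) for miR-10a-5p and -1.21 (SE 0.34) for miR-10b-5p, and the ratio of the mean CPM of S72h to that of Control was 0.594 and 0.428. Of these comparisons with Control, the one at 72 h gave the largest size for both members. Ordered from the most negative fold change at 72 h, miR-10b-5p was the 28th and miR-10a-5p the 63rd of the 252 miRNAs that had enough counts to be tested, where the minimum was 10 CPM in at least 12 libraries.

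S72h and S24h had the same control group in the study, and the pair was lower in the later group there too. The log2 fold change of S72h against S24h was -0.56 (SE 0.26) for miR-10a-5p and -0.71 (SE 0.34) for miR-10b-5p. In a model of these 12 libraries alone it was -0.61 (SE 0.24) and -0.73 (SE 0.30). In a model of the 12 Control and S6h libraries alone, which compares S6h with its own controls, it was -0.02 (SE 0.29) for miR-10a-5p and 0.35 (SE 0.33) for miR-10b-5p.

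The choice of scaling moved the fold changes of all miRNAs together. The median log2 fold change over all tested miRNAs at 24 h was -0.21 with TMM and as near to 0 as -0.03 with column totals, and miR-10a-5p changed sign at 24 h with column totals, to 0.03. Relative to the median of all tested miRNAs, over TMM, RLE factors, column totals, DESeq2 and totals without the 5 most abundant miRNAs, the fold change at 72 h stayed between -0.65 and -0.60 for miR-10a-5p and between -1.16 and -1.08 for miR-10b-5p. On the same relative scale miR-10a-5p was between 0.03 and 0.06 at 24 h, and miR-10b-5p between -0.32 and -0.28.

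A call meant an adjusted p under 0.05 (edgeR, Benjamini-Hochberg over all tested miRNAs) and a fold change of at least 1.5. By that rule 0 of the 2 members were called at 6 h, where the share of all tested miRNAs called was 0%, 9 miRNAs had an unadjusted p under 0.05 and DESeq2 called 0. At 24 h 0 of 2 were called, against 11.9% of all tested miRNAs. At 72 h 1 of 2 was called, miR-10b-5p, against 3.57% of all, and in S72h against S24h 0 of 2, against 0.397%. Nothing is read from these counts, since the pair was chosen with them known. The groups S72h and Control separated without overlap in 1.19% of the tested miRNAs, and in neither member. The call of miR-10b-5p at 72 h was near the threshold. It was kept in 3 of 8 alternative settings and in 9 of the 24 fits that left out 1 mouse, namely those without Control replicate 3 or 6, S6h replicate 3, 4 or 6, S24h replicate 2 or 5, or S72h replicate 1 or 2. The fold change itself stayed between -1.43 and -0.81 on the log2 scale in these 24 fits, and the smallest size was found without Control replicate 4. Without that mouse the log2 fold change of miR-10b-5p was 0.76 at 6 h and -0.11 at 24 h.

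**Figure D2:**
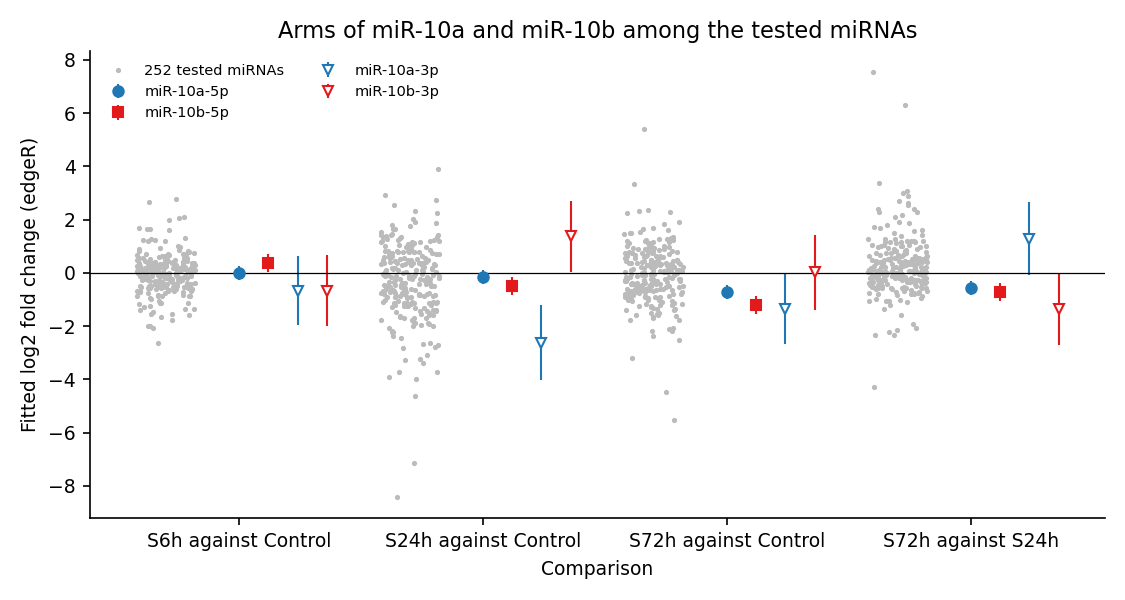
Fitted log2 fold changes (vertical axis) in the 4 comparisons, with grey points for the 252 tested miRNAs and coloured symbols for the 5p arms (filled) and 3p arms (open) of miR-10a and miR-10b, with bars of 1 SE. At 72 h against Control, miR-10b-5p stands at -1.21 and miR-10a-5p at -0.71, and the bars of the 3p arms are wide.

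The balance between the 2 members differed between groups. Because both are counted in the same library, their ratio does not depend on any scaling of the library. The share of miR-10b-5p among the counts of the pair had a median of 42.2% in Control, with a range from 32.6% to 53.6%. In S6h it had a median of 50.1% and a narrow range from 48.0% to 55.3%. In S24h the share had a median of 41.4% and a range from 27.7% to 47.8%, and in S72h a median of 35.9% and a range from 23.6% to 47.6%. The lowest of the 6 S6h mice thus had a higher share than the highest of the S24h mice and of the S72h mice, and a higher share than 5 of 6 Control mice, all but Control replicate 4. miR-10b-5p was the more abundant member in 1 of 6 Control mice, in 3 of 6 S6h mice and in 0 of 12 later mice. The share is built from the levels that chose the pair, so it is a description and was not tested. How often other pairs of miRNAs separate in this way was not examined. S6h and the later groups had different controls in the study, so time and any difference of batch cannot be told apart here either.

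On the log2 scale, the ratio of miR-10b-5p to miR-10a-5p was -0.44 ± 0.40 in Control, 0.06 ± 0.18 in S6h, -0.68 ± 0.50 in S24h and -0.87 ± 0.51 in S72h (mean ± SD, n = 6 each). The counts set the precision of a single mouse. The Wilson 95% interval of the share was 54.2% to 56.4% in S6h replicate 4, which had the highest share, and 20.1% to 27.4% in S72h replicate 5, which had the lowest. The gap between the lowest S6h mouse, at 48.0%, and the highest S24h mouse (44.6% to 51.1%) was within counting error. Intervals cover counting error only, since reads were amplified by PCR before counting.

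**Figure D3:**
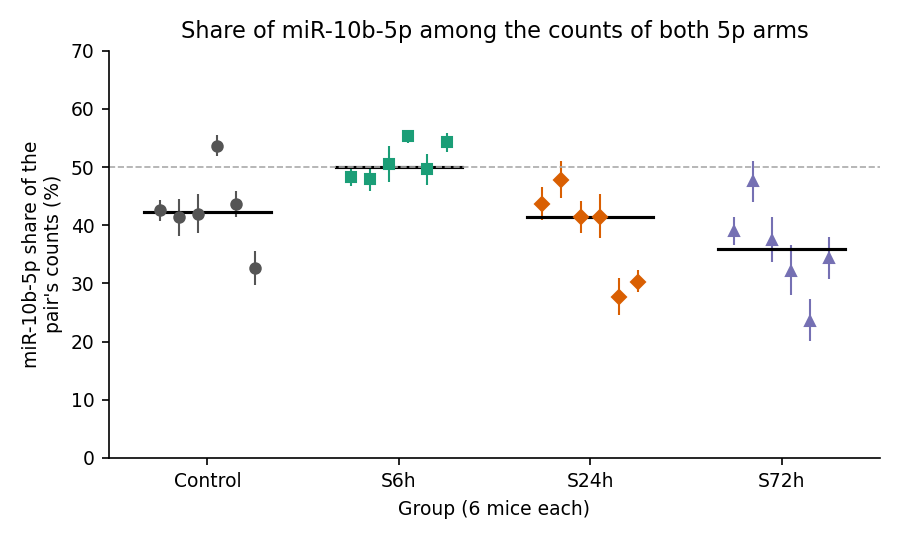
Share of miR-10b-5p among the counts of both 5p arms (percent), with 1 point per mouse in the order of the replicate numbers, bars for the Wilson 95% interval, a solid line at the group median and a dashed line at 50%. The 6 S6h mice lie between 48.0% and 55.3%, above all S24h and S72h mice.

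Mice with more miR-10a-5p also had more miR-10b-5p. Over the 24 libraries the log2 CPM of the members had a Pearson r of 0.769 and a Spearman rho of 0.774. Without S72h replicates 4 and 6, the mice farthest from the median of miR-10a-5p, r was 0.639. Within Control and S6h (n = 12) r was 0.787 and rho 0.734, and within S24h and S72h (n = 12) r was 0.739 and rho 0.755. Leaving out the 2 farthest mice of each of these sets gave r of 0.732 and 0.632. After the group means were removed, r was 0.700. These values are a description without a p, because the levels they use chose the pair. Those over all 24 libraries and within S24h and S72h, where group means were kept, hold the lower level of both members in S72h. The 2 values of a mouse share its library and its total, and their sequences differ by 1 base, and what part of the relation comes from this was not tested.

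**Figure D4:**
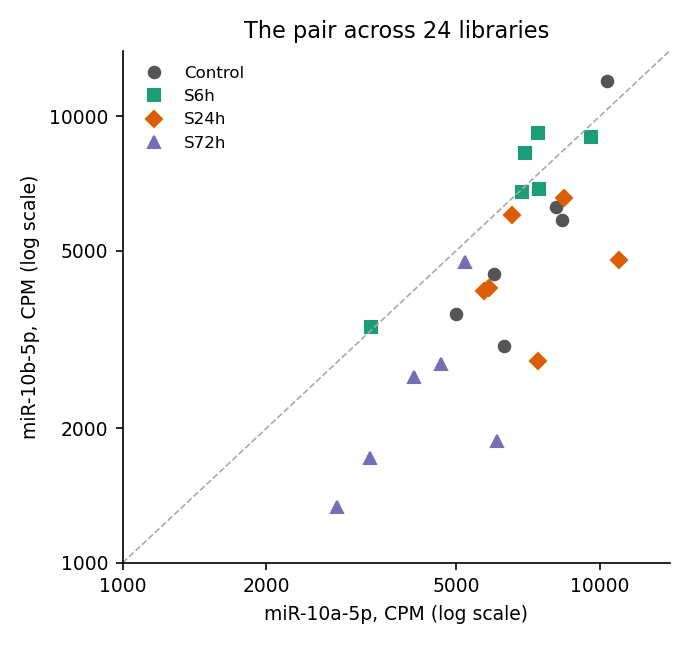
miR-10b-5p against miR-10a-5p, both in CPM on log axes, with 1 symbol per mouse and a dashed line where both are equal. S72h mice lie at the lower left, S6h mice along the line of equality, and all S24h and S72h mice below it.

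The 3p arms were not used to choose the pair and were tested. They were rare. Over all libraries miR-10a-3p had 193 counts against 22246 of miR-10a-5p, which is 0.860% of the reads of both arms (Wilson 95% interval 0.747% to 0.990%). miR-10b-3p had 248 counts against 19174, which is 1.28% (1.13% to 1.44%). The 5p arm was the main arm of both hairpins in every group.

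miR-10a-3p was detected in 5 of 6 Control mice with 67 counts in all, in 5 of 6 S6h mice with 86 counts, in 1 of 6 S24h mice with 14 counts, and in 3 of 6 S72h mice with 26 counts. All 14 counts of S24h came from replicate 6. Its log2 fold change at 24 h was -2.62 (SE 1.40, adjusted p = 0.202 by edgeR), which did not pass the test. At 6 h it was -0.67 (adjusted p = 0.991) and at 72 h -1.35 (adjusted p = 0.658). Leaving out S24h replicate 6 turns this into a call (adjusted p = 0.0274 by edgeR), but that removes all counts of the group, so the call rests on the removal and supports no difference. miR-10a-5p did not share this pattern, with a log2 fold change of -0.15 at 24 h and its highest S24h value in the same replicate 6.

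miR-10b-3p had 61 counts in 3 of 6 Control mice, 47 of them in replicate 1, 51 counts in 3 of 6 S6h mice, 100 counts in 5 of 6 S24h mice and 36 counts in 4 of 6 S72h mice. The fitted difference from Control on the log2 scale was -0.66 at 6 h (adjusted p = 0.991 by edgeR), 1.37 at 24 h (SE 1.34, adjusted p = 0.551) and 0.01 at 72 h (adjusted p = 0.996), and none passed the test. Without Control replicate 1 the values for S6h, S24h and S72h were 0.55, 2.59 and 1.23. In S24h the counts came mostly from replicates 1, 3 and 6, with 29, 41 and 26, and the other mice had at most 3. Pooled over a group, miR-10b-3p made up 1.30% of the reads of its hairpin in Control (95% interval 1.02% to 1.67%), 0.496% in S6h (0.377% to 0.651%), 3.70% in S24h (3.05% to 4.48%) and 2.05% in S72h (1.49% to 2.83%). For miR-10a-3p the same shares were 1.16% (0.918% to 1.48%), 0.914% (0.741% to 1.13%), 0.322% (0.192% to 0.541%) and 0.886% (0.605% to 1.29%). At 24 h the share was thus lowest for miR-10a and highest for miR-10b. The counts sat in a few mice, and the intervals do not cover the spread between mice.

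**Figure D5:**
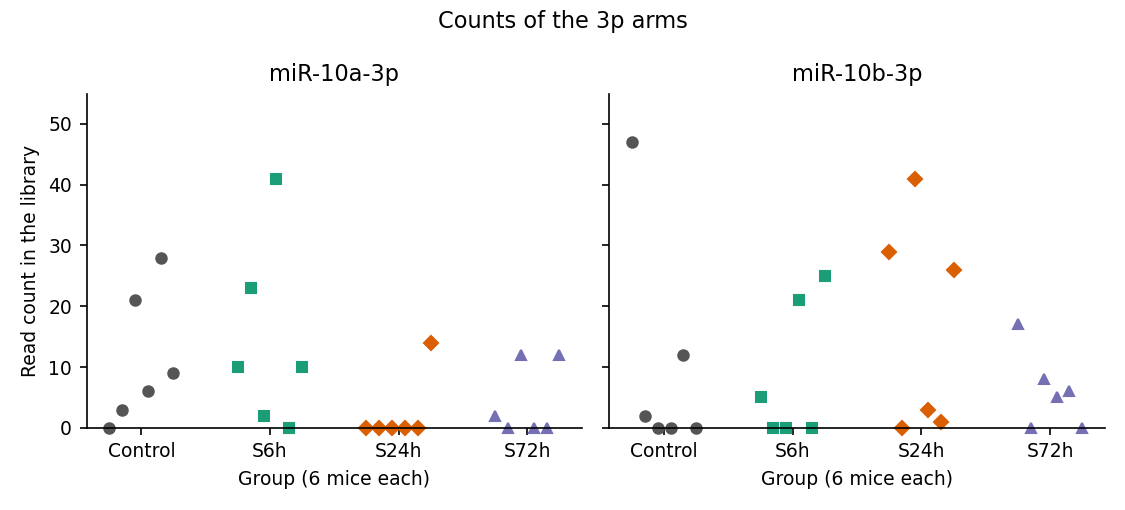
Read counts of miR-10a-3p (left) and miR-10b-3p (right), with 1 point per mouse in the order of the replicate numbers. In S24h all 14 counts of miR-10a-3p are in replicate 6, and most counts of miR-10b-3p are in 3 mice.

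Other miRNAs of the Hox clusters were scarce in these libraries. The list held 7 mature miRNAs of the table, the arms of miR-196a, miR-196b and miR-615. In GRCm38, Mir196a-1 lies 6211 bp from Hoxb9, Mir196a-2 and Mir615 lie within the span of Hoxc5, and Mir196b lies within that of Hoxa9. miR-196a and miR-196b, known repressors of Hox transcripts, and miR-615-3p are shown because they also come from Hox clusters but lack the seed of miR-10. Of these hairpins, only Mir196a-1 lies in a cluster that holds a member of the pair, HoxB.
mmu-miR-196a-5p: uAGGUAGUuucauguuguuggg
mmu-miR-196b-5p: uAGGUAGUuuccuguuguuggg
mmu-miR-615-3p: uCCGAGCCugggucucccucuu
Of the 7, only miR-196b-5p and miR-615-3p passed the filter on low counts, and 0 of these were called by edgeR in any of the 4 comparisons, beside 0%, 11.9%, 3.57% and 0.397% of all tested miRNAs at 6, 24 and 72 h and in S72h against S24h. DESeq2 called neither, and 0 had an unadjusted p under 0.05 by edgeR. In S6h, S24h and S72h their median log2 fold change was -0.69, 1.47 and 0.79, beside -0.02, -0.21 and -0.06 over all tested miRNAs. miR-196b-5p had 10 counts in 2 of 6 Control mice, 8 counts in 1 S6h mouse, 57 counts in 5 of 6 S24h mice and 39 counts in 4 of 6 S72h mice. Against Control it stood at 2.56 on the log2 scale at 24 h (SE 1.38, adjusted p = 0.202 by edgeR) and 2.29 at 72 h (SE 1.37, adjusted p = 0.397), neither of which passed. miR-615-3p had a median of 193 CPM in Control and 102 CPM in S72h, with a log2 fold change of -0.71 at 72 h (SE 0.89, adjusted p = 0.737). miR-196a-5p had 11 counts in Control, 48 in S6h, 9 in S24h and 3 in S72h, and miR-196a-1-3p had 7 counts in 1 Control mouse. miR-196a-2-3p, miR-196b-3p and miR-615-5p had 0 counts in all 24 libraries.

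miR-99a, miR-99b and miR-100 are the sequence relatives of miR-10. Their 5p arms have the seed ACCCGUA in common, and they are shown because it is close to that of miR-10 and not the same.
mmu-miR-99a-5p: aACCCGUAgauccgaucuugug
mmu-miR-99b-5p: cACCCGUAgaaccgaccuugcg
mmu-miR-100-5p: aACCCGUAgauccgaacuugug
The longest run that miR-10a-5p shared with them was 11 bases, GUAGAUCCGAA in miR-100-5p, and the longest of miR-10b-5p was 10 bases, GUAGAACCGA in miR-99b-5p. Of 6 arms on this list, 4 were tested and 0 were called in any comparison by edgeR, beside the same shares of all tested miRNAs, from 0% to 11.9%. At 72 h against Control the log2 fold change was 0.29 for miR-99a-5p (SE 0.39), 0.09 for miR-99b-5p (SE 0.28) and 0.11 for miR-100-5p (SE 0.43), with adjusted p values of at least 0.757 by edgeR over all tested miRNAs. DESeq2 called none of them either, and an unadjusted p under 0.05 by edgeR was found once, for miR-99a-5p in S72h against S24h (0.81, SE 0.40, adjusted p = 0.431). In S6h, S24h and S72h the median of the 4 was 0.08, -0.30 and 0.10.

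Of the miRNAs most like the pair across mice, none was miR-99a, miR-99b or miR-100. miR-125a, which was among them, is made from the same cluster as miR-99b. Likeness was the Pearson r of log2 CPM over the 24 libraries, among the 165 other miRNAs whose mean level reached 100 CPM. For miR-10a-5p the 5 highest were let-7d-3p (r = 0.842), miR-125a-5p (0.816), miR-10b-5p (0.769), miR-30d-5p (0.652) and miR-92a-3p (0.627). For miR-10b-5p they were miR-125a-5p (0.821), let-7d-3p (0.774), miR-10a-5p (0.769), miR-16-5p (0.709) and miR-30d-5p (0.677). By this measure miR-125a-5p and let-7d-3p stood above the other member of the pair in both lists, but the gaps were small and the order depended on the measure. With TMM scaling miR-10a-5p (0.780) stood above let-7d-3p (0.774) for miR-10b-5p, and by Spearman rho miR-10b-5p (0.774) stood above let-7d-3p (0.757) for miR-10a-5p. With miR-10a-5p, miR-99b-5p had an r of 0.23, miR-100-5p of -0.03 and miR-99a-5p of -0.31, which ranked 29th, 93rd and 153rd. All of these values share the libraries and their totals and are a description.

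After removal of the group means, let-7d-3p ranked first for both members, at r of 0.808 with miR-10a-5p and 0.709 with miR-10b-5p, miR-10a-5p (0.700) stood above miR-125a-5p (0.652) for miR-10b-5p, and miR-150-5p, a lymphocyte miRNA, came second for miR-10a-5p at 0.766. miR-125a-5p had a median of 8710 CPM in Control and 5241 CPM in S72h, and its log2 fold change at 72 h was -0.78 (SE 0.29). let-7d-3p had medians of 3473 and 2537 CPM and a log2 fold change of -0.60 (SE 0.31). miR-16-5p, which is abundant in red cells, had a log2 fold change of -1.20 at 24 h (SE 0.29) and -1.01 at 72 h (SE 0.29), whereas miR-10b-5p was at -0.51 and -1.21. These miRNAs were picked for following the pair, so their fold changes carry no p.

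miRNAs that mark other sources of serum RNA were set beside the lower level of the pair at 72 h, as their summed CPM. All markers of the 7 lists were detected in every group. The 5 erythroid miRNAs summed to between 104004 and 189168 CPM in Control (median 134846) and between 41660 and 170191 in S72h (median 61470), and 0 of 5 were called at 72 h, where 3.57% of all tested miRNAs were called, and 3 of 5 were called lower at 24 h, where the share was 11.9%. The 5 smooth muscle and mesenchyme miRNAs summed to between 12302 and 84951 CPM in Control (median 24654) and between 7798 and 22243 in S72h (median 12034), with 1 of 5 called lower, and at 24 h 3 of 5 called lower and 1 higher. The 7 gut and kidney epithelium miRNAs went from a range of 5636 to 16678 CPM (median 10960) to 808 to 11078 (median 6460), with 0 of 6 tested called at 72 h and 1 of 6 called lower at 24 h. These 3 sums had lower medians at 72 h than in Control.

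The 4 skeletal muscle miRNAs summed to between 34151 and 90004 CPM in Control (median 53240) and between 6351 and 237285 in S72h (median 27736), and the 2 liver arms to between 3706 and 160092 (median 68536) and between 4768 and 299754 (median 8064). The 4 platelet and leukocyte miRNAs summed to between 4259 and 11523 CPM in Control (median 9541) and between 3045 and 11084 in S72h (median 8520). The 2 endothelial arms summed to between 1467 and 5457 CPM (median 3648) and between 2335 and 7307 (median 5506). In these 4 lists 0 members were called at 72 h, beside 3.57% of all tested miRNAs, a share at which lists this short would hold few or no calls. The medians of the skeletal muscle, liver and platelet and leukocyte sums were lower at 72 h too, whereas that of the endothelial sum was higher. A sum follows its most abundant members, and the median fitted log2 fold change over the tested members at 72 h was 0.43 for skeletal muscle and 0.11 for the 1 liver arm tested, opposite in sign to these sums, beside -0.88 for the erythroid, -0.48 for the mesenchyme, -1.04 for the epithelium, -0.31 for the platelet and leukocyte and 0.70 for the endothelial list. The part of any of these sources in the level of miR-10a-5p or miR-10b-5p was not tested.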

How the data were processed

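Small RNA of serum EVs was sequenced in 24 libraries. Per the study's methods, the authors trimmed reads with cutadapt, aligned them to GRCm38/mm10 with Bowtie, kept reads of miRNA length and assigned them to the mature miRNAs of miRBase with featureCounts. The deposited values are whole-number counts without normalization. Samples were grouped by the labels. Nothing states that a replicate number pairs mice.

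CPM was computed from column totals. One edgeR 4.0.16 quasi-likelihood model (R 4.3.3) was fitted to 4 groups with TMM, on the 252 miRNAs with at least 10 CPM in at least 12 libraries, with Benjamini-Hochberg adjustment over them. It was tested on simulated data. The study used DESeq2, which was an alternative (version 1.42.0). The planned permutation p values of the correlation of the pair are not given, since the levels tested had chosen the pair. Likeness used a prior count of 2, ratios a pseudocount of 0.5 counts. Mature and hairpin sequences came from RefSeq, positions from GENCODE.

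The members, lists of relatives and markers were chosen with earlier results of these data known. Named miRNAs were the arms of miR-10a and miR-10b, the Hox cluster and miR-99/miR-100 lists and the 5 most like each member. miR-150-5p, a marker, was singled out after its values were seen. miR-196a-3p is no row of the table. Counts limit the precision: 1 count was worth between 2.12 and 15.6 CPM. Alternatives changed the test, scaling, filter, libraries, block, pseudocount and mice.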

Additional observations from a re-analysis of the deposited data

Results flagged for a closer look

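Single mice far from the rest of their group were looked for in 20 sets of 6 values, of which chance alone would give about 1. There were 2. In Control, the CPM of miR-10b-5p in replicate 4 (11949) was separated from the next mouse by 0.640 of the whole range of the group. In S24h, the CPM of miR-10a-3p was above 0 in replicate 6 alone, so that the gap was the whole range (1).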

How the results depend on the processing

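The fold changes of miR-10a-5p and miR-10b-5p moved by less than the spread between mice under all 8 alternatives to the fit. This includes miR-10a-5p at 24 h, whose sign changed with column totals. At 72 h they ranged from -0.75 to -0.59 and from -1.23 to -1.08. miR-10a-5p at 72 h was called by DESeq2 alone, which called 27 of the 252 tested miRNAs in that comparison. Nothing is read from this call, since the pair was chosen with its levels known. With both members summed into 1 feature, the log2 fold change of S6h, S24h and S72h was 0.16, -0.30 and -0.91.

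The count of called miRNAs (30 at 24 h, 9 at 72 h, 1 in S72h against S24h, 0 at 6 h) depended on the setting, and the cause was not tested. DESeq2 called 50, 27 and 4 at 24 h, at 72 h and in S72h against S24h. At 72 h column totals gave 2, a mean of at least 100 CPM 18, the 2 groups alone 0, and totals without the 5 most abundant miRNAs 15. Without the filter 2 were called at 6 h and 10 in S72h against S24h, and with the 2 groups alone 0 in the latter. At 24 h, 10 calls were higher and 20 lower with TMM, but 18 and 19 with RLE factors. Leaving out 1 mouse gave 20 to 42 calls at 24 h, 1 to 14 at 72 h, 1 to 5 in S72h against S24h, and 0 at 6 h.

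The 3p arms were unstable. miR-10b-3p at 72 h was -0.0023 with RLE factors, -0.021 with column totals, -0.0076 without the filter, and -0.24 to 1.23 with 1 mouse left out. At 6 h it was -1.63 to 0.55 with 1 mouse left out, and at 24 h 0.90 to 2.59. miR-10a-3p at 24 h was -6.63 to -2.22, the former without S24h replicate 6, where the fitted value is no bound. The filter at a mean of 100 CPM left out both 3p arms.

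Whether the replicate numbers pair the mice was not settled, since weak correlations cannot exclude a pairing. Deviations of same-numbered mice correlated between -0.29 and 0.21 over 36 pairs, above 0.1 in 8, and 7 of 24 mice correlated best with their own number. No chance value was computed for these counts. With the replicate block 1 miRNA was called at 72 h, miR-10a-3p was 0.067 at 6 h and miR-10b-3p -0.093 at 72 h.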
